A study of Homo sapiens with 26 samples.

Results

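Kinesins are motor proteins that use ATP to move along microtubules or to take them apart. Their transcripts were followed in cell lines of diffuse large B-cell lymphoma (DLBCL) and multiple myeloma (MM), where vincristine, which binds tubulin and halts cells in mitosis, is 1 of the drugs tested. The family was taken as every gene whose symbol in the array's annotation is KIF followed by a digit, each represented by its probe-set of the highest mean over all lines. This gave 42 of 19775 genes with a symbol. Of these, 38 encode motors and 4 are antisense transcripts (KIF1C-AS1, KIF9-AS1, KIF23-AS1 and KIF25-AS1), and KIF4B had no probe-set of its own. By known role, 13 motors act in mitosis, 13 carry cargo and 12 belong to neither group.

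Total RNA was measured on 1 Affymetrix HG-U133 Plus 2.0 array for each of 26 untreated lines, harvested while growing exponentially. The 14 DLBCL lines included MC-116, labelled an undifferentiated lymphoma, and the 12 MM lines included AMO-1, labelled a plasmacytoma. The lines had been treated with cyclophosphamide (C, 24 lines, tested as an analogue that is active without the liver), doxorubicin (H, 26 lines) and vincristine (O, 24 lines), each drug on its own, and the response was summarised as AUC0, the area under the dose response curve of the growth rate where it is above 0. A high AUC0 stands for resistance, and the labels also class lines within each disease as resistant, intermediate or sensitive. A line is thus the replicate, a line is a culture grown outside the body without its neighbouring cells, and KMS-12-BM and KMS-12-PE come from the same patient.

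The mitotic kinesins work in turn as a cell divides. KIF11 and KIF15 push the spindle poles apart, KIF2A, KIF2B, KIF2C, KIF18A and KIF18B shorten microtubules or limit their length, KIF4A and KIF22 bind chromosomes, and KIF14, KIF20A, KIF20B and KIF23 build the central spindle and the furrow through which the daughter cells part. Transport kinesins carry membrane cargo: KIF5A, KIF5B and KIF5C are heavy chains of kinesin-1, KIF3A, KIF3B, KIF3C and KIF17 belong to kinesin-2, and KIF1A, KIF1B, KIF1C, KIF13A, KIF13B and KIF16B to kinesin-3. Genes that are switched on late in the cell cycle often hold a cell cycle homology region (CHR) near the start of transcription, downstream of CCAAT boxes.

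The promoters are shown because most mitotic kinesins hold these letters, while the transport kinesins mostly lack them, as most genes do. A promoter window (250 bases before to 50 after the start, RefSeq, GRCh38.p14) was given for 32 of the 38 motors. The CHR was searched as TTTGAA or TTCGAA and the other motif as CCAAT, each on both strands (TTCGAA reads the same on both and was counted once, and matches of the 2 motifs may share bases at their ends). A gene with several windows was counted once. CHR letters stood within 100 bases of the start in 9 of 13 mitotic kinesins (69.2%), 0 of 11 transport kinesins and 1 of 8 others (KIF24), against 9.09% of 27305 genes over all promoters. CCAAT within the same distance was found in 9 of 13 mitotic kinesins (69.2%) and 2 of 11 transport kinesins (18.2%), against 25.3% of genes over all promoters. Both stood there in 8 of 13 mitotic kinesins (61.5%) and in 2.34% of all genes. A match in letters is a description and no evidence of a bound factor.

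The 100 bases before the start are printed 5′ to 3′ on the strand of the gene for 5 mitotic kinesins that hold both, with the CHR and CCAAT letters of either strand in capitals, and for KIF2C and KIF1B, which differed between the diseases and hold neither in this stretch. They lie at chr10:92593030-92593129 (KIF11, plus strand), chr11:28108157-28108256 (KIF18A, minus), chrX:70290004-70290103 (KIF4A, plus), chr16:29790651-29790750 (KIF22, plus), chr15:69414249-69414348 (KIF23, plus), chr1:44739737-44739836 (KIF2C, plus) and chr1:10210470-10210569 (KIF1B, plus).
KIF11: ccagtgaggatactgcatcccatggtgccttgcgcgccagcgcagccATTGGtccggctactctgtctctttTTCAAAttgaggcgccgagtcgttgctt
KIF18A: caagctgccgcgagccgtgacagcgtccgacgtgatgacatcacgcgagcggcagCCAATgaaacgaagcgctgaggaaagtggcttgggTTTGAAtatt
KIF4A: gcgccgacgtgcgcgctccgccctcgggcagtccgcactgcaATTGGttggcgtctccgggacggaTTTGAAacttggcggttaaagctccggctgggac
KIF22: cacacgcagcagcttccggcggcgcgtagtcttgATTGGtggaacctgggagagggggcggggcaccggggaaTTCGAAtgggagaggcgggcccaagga
KIF23: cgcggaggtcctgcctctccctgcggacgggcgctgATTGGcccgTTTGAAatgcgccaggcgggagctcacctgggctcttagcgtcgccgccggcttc
KIF2C: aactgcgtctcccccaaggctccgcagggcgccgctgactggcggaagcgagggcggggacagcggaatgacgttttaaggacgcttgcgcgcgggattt
KIF1B: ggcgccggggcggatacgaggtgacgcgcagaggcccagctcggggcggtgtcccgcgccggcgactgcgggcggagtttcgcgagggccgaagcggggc

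In KIF11, KIF18A, KIF4A, KIF22 and KIF23 the CCAAT letters lay upstream of the CHR letters. The CHR letters began 28 bases before the start in KIF11, 10 in KIF18A, 34 in KIF4A, 27 in KIF22 and 55 in KIF23. KIF1B held CCAAT letters only further upstream, at 157 and 126 bases before this start, and KIF20A held CCAAT but no CHR letters.

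All values are log2 after RMA, and array medians lay between 5.65 and 5.72. The B-cell and plasma cell markers followed the labels: all 7 B-cell markers measured were lower and all 8 plasma cell markers higher in MM, and none of the 5 T-cell, 4 myeloid and 5 stromal markers differed in the same test. No batch of the arrays is named in the sources used here. Of the 42 transcripts, 35 were above 5.68, the median of all values, in at least 4 lines. The others were KIF2B, KIF13A, KIF24, KIF26A, KIF27, KIF1C-AS1 and KIF23-AS1, all of low values. Differences between the diseases were small there, such as -0.19 for KIF13A, -0.29 for KIF24 and -0.26 for KIF23-AS1 (MM minus DLBCL, none called).

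Mitotic and transport kinesins had similar median gaps over the lines, and only the extremes lay further apart among the transport kinesins. Among the mitotic kinesins the gap between the highest and the lowest line ranged from 1.04 to 3.03 log2 units (median 2.22), and among the transport kinesins from 0.64 to 4.65 (median 2.10). The largest gaps were in KIF21A (6.19) and KIF21B (5.92), which slow the growth of microtubule ends and belong to neither group. KIF5C, a kinesin-1 heavy chain best known from neurons, was high in a few lines only, at 9.35 in DB, 9.01 in U-266, 8.60 in OCI-Ly7 and 8.46 in SU-DHL-8, while the median was 5.83 in DLBCL and 5.29 in MM.

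**Figure D1:**
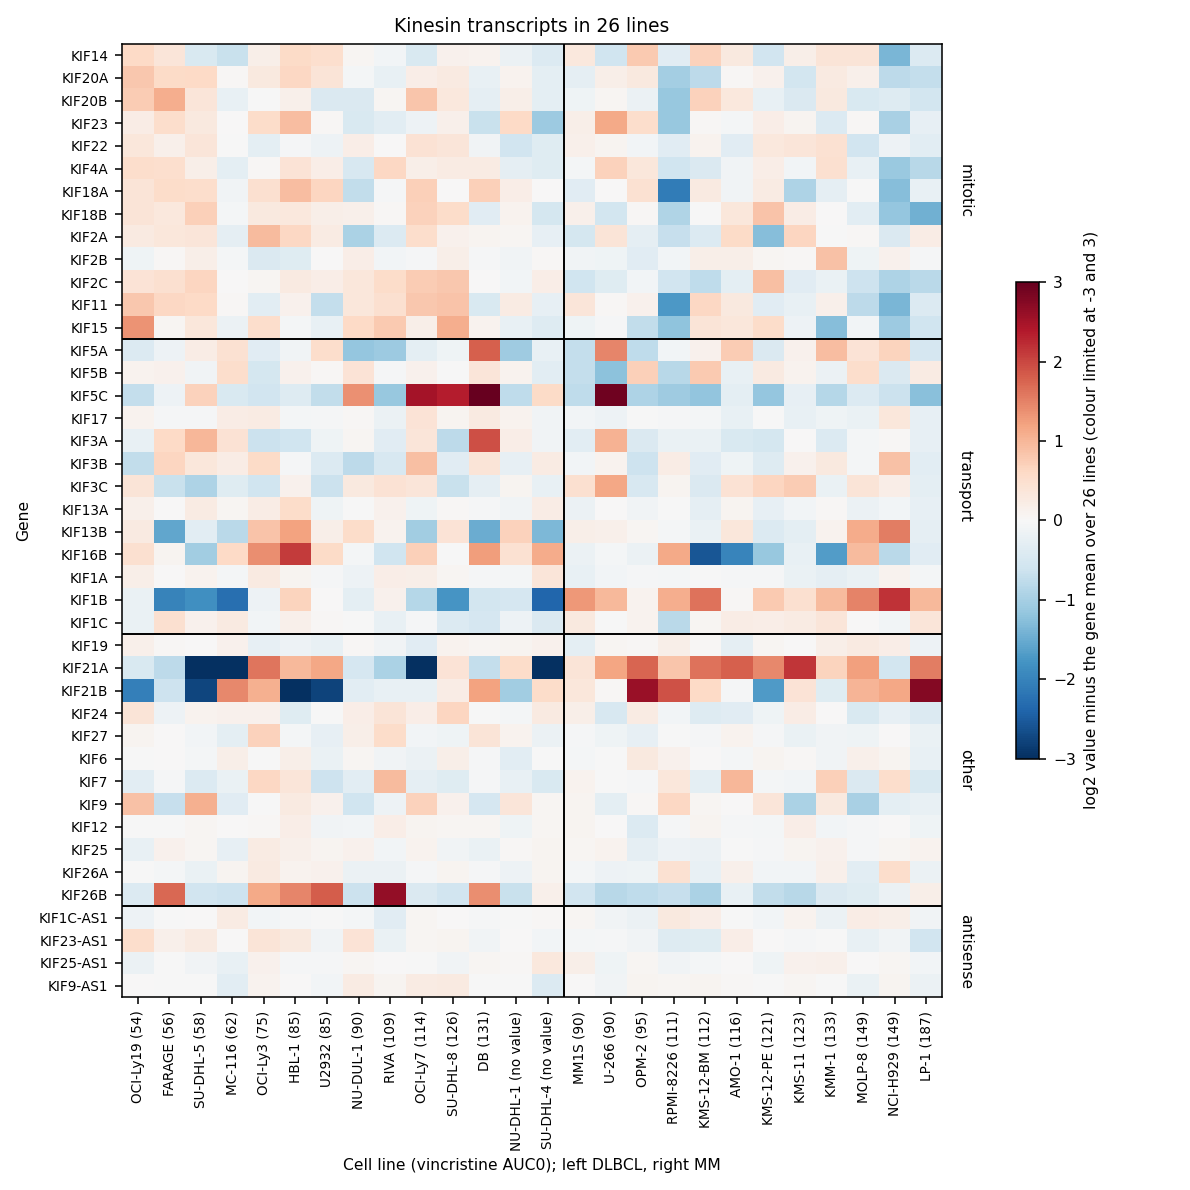
Level of each of the 42 transcripts (rows, by role) in each of the 26 lines (columns, DLBCL left and MM right, each in order of vincristine AUC0, given in brackets) as the log2 value minus the mean of the gene. Most mitotic rows have low values in RPMI-8226 and NCI-H929. The lines in which KIF5C, KIF21A, KIF21B, KIF26B and KIF16B change differ from gene to gene and partly overlap. DB, for example, is high in KIF5C, KIF26B and KIF16B.

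The levels of the mitotic kinesins were mostly correlated over the lines. After the mean of each disease was taken off, the 66 pairs of the 12 mitotic kinesins above the median had a median Pearson r of 0.43 over 26 lines, 64 were above 0, and the highest was 0.79 for KIF20B with KIF11. The 66 pairs of transport kinesins had a median r of -0.02 and the 144 mitotic with transport pairs one of -0.01. The transport set holds KIF1A and KIF17, which spanned only 0.64 and 0.66 log2 units over the lines, and r says little at so small a spread. Every mitotic kinesin spanned at least 1.04. Taken separately, which was added after the data were seen, the mitotic pairs had a median r of 0.43 over the 14 DLBCL lines (59 of 66 above 0) and 0.44 over the 12 MM lines (63 above 0). The MM value rested on the lines of lowest mitotic levels, since without RPMI-8226 and NCI-H929 the median was 0.14 over 10 MM lines (41 above 0) and 0.25 over all 24 remaining lines (56 above 0). Transport pairs had a median r of -0.02 over the DLBCL lines and 0.07 over the MM lines, where 12 of 66 were above 0.5. Over the 10 MM lines their median was -0.02, with 6 pairs above 0.5, the same number as for mitotic pairs. Over the 24 lines 4 transport and 7 mitotic pairs were above 0.5. These are descriptions over lines that share the array and its processing. With the mean of 20 proliferation genes, such as MKI67, TOP2A and the MCM helicase genes, the 12 mitotic kinesins had a median r of 0.63, from 0.34 for KIF2A, which also works outside mitosis, to 0.79 for KIF11. Transport kinesins had a median r of -0.06, and of these only KIF1C passed 0.5 (0.54). The r with the proliferation genes was taken over all 26 lines, and was not computed without RPMI-8226 and NCI-H929.

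Averaged over the 12 mitotic kinesins, each taken relative to its own mean, the MM lines ranged from -0.98 to 0.10 (median -0.04) and the DLBCL lines from -0.34 to 0.57 (median 0.18). RPMI-8226 was lowest at -0.98, followed by NCI-H929 at -0.92 and LP-1 at -0.52, all MM. No mitotic kinesin of the 12 was above its mean in RPMI-8226 or NCI-H929, and all 12 were above it in OCI-Ly19, FARAGE and SU-DHL-8. The proliferation genes were at -1.15, -0.75 and -0.72 in RPMI-8226, NCI-H929 and LP-1, so the lines that were lowest in the one were lowest in the other.

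**Figure D2:**
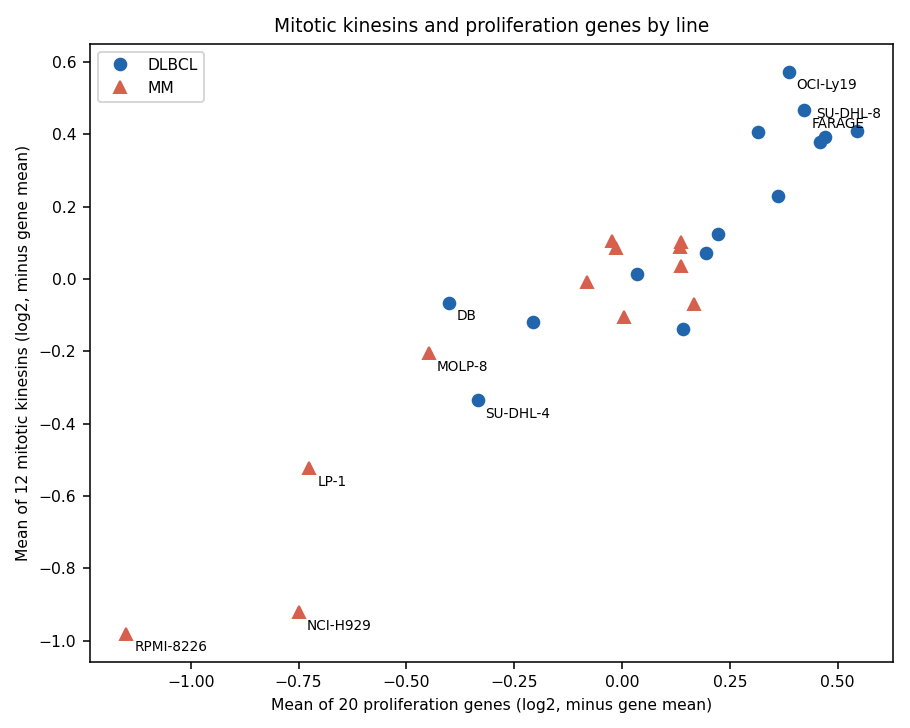
Mean of the 12 mitotic kinesins (vertical axis) against the mean of 20 proliferation genes (horizontal axis), both in log2 relative to each gene's mean, with 1 point per line. RPMI-8226, NCI-H929 and LP-1 lie apart at the low end, and OCI-Ly19 has the highest mitotic mean (0.57).

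The first comparison asked which kinesins differ between the diseases. The microtubule motors KIF1B and KIF21A, which act outside mitosis, were higher in MM, and the spindle depolymerase KIF2C and, by a small amount, KIF1A were lower. These 4 of 42 passed an adjusted p of 0.05 (limma over all features), against 3628 of 33297 features (10.9%) over the whole array. The number called moved with the lines used: without KMS-12-PE it was 7 of 42, against 3446 features (10.3%), and without MC-116 and AMO-1 it was 7 of 42, against 3327 features (9.99%). By class, 1 of 13 mitotic kinesins was called lower and none higher, 1 of 13 transport kinesins was called in each direction, and 1 of the 12 others was called higher. The background was 5.49% of features called higher and 5.4% called lower.

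**Figure D3:**
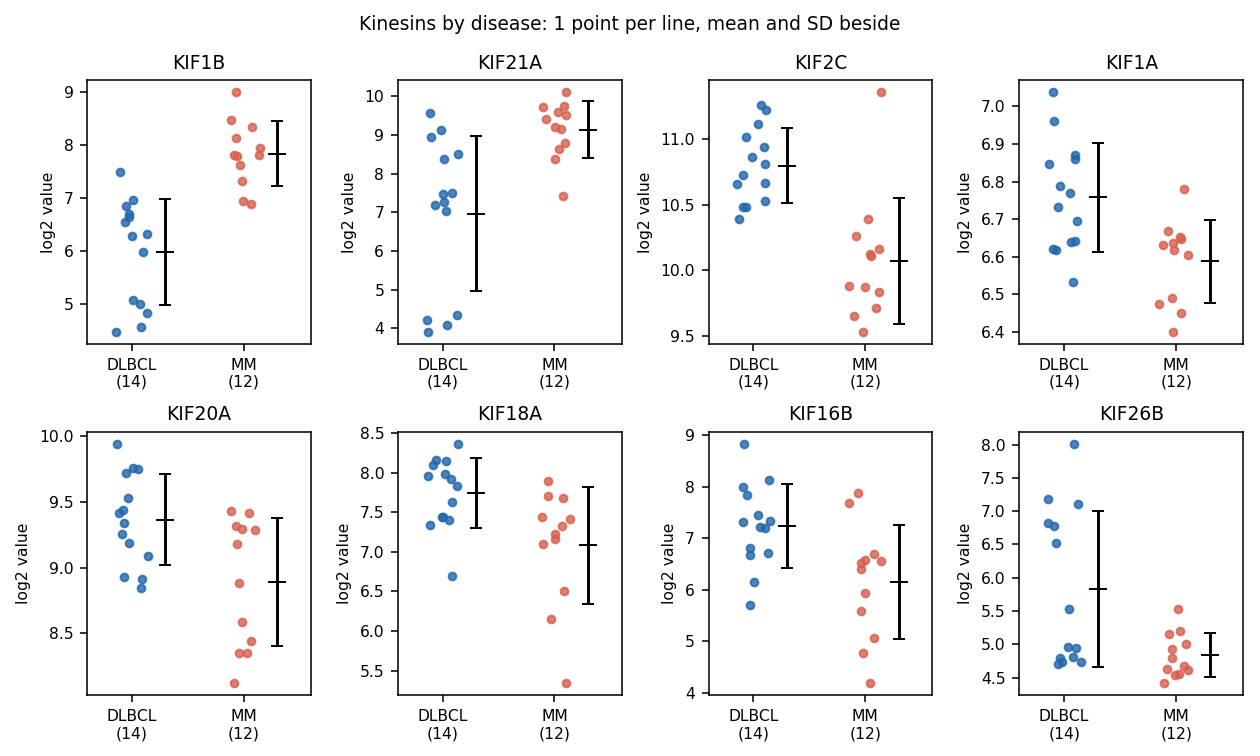
log2 value (vertical axis, a separate scale in each panel) of 8 kinesins in the 14 DLBCL and 12 MM lines, with 1 point per line and the mean and SD beside. KIF1B and KIF2C separate most lines, with HBL-1 (7.50) among the MM levels of KIF1B and KIF2C highest of all in KMS-12-PE (11.36), an MM line.

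Among the mitotic kinesins, KIF2C (MCAK), which removes tubulin from microtubule ends at centromeres, was at 10.39 in the lowest, 10.77 in the median and 11.26 in the highest DLBCL line, and at 9.53, 9.99 and 11.36 in MM. Of the 12 MM lines, 10 lay below every DLBCL line and 1, KMS-12-PE, above every one. Its sister line KMS-12-BM was at 9.71. The mean of KIF2C was 10.80 ± 0.28 (SD, n = 14) in DLBCL and 10.07 ± 0.48 (SD, n = 12) in MM, a difference of -0.72 (SE 0.15) or 1.65-fold (95% interval 1.34 to 2.04; adjusted p = 0.0019, limma). The second probe-set of KIF2C gave -0.65 (adjusted p = 0.0077).

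In 12 of the 13 mitotic kinesins the estimate was below 0, with a median of -0.32, while 55.1% of all features had an estimate below 0 and their median was -0.02. The mitotic kinesins were mostly correlated over the lines (64 of 66 pairs above 0), so these signs are not independent counts. In RPMI-8226 and NCI-H929, both MM, 0 of the 12 above the median of all values exceeded their gene mean. Beside KIF2C no mitotic kinesin passed. KIF20A, which brings the chromosomal passenger complex to the central spindle, had a median of 9.38 in DLBCL (8.84 to 9.94) and 9.03 in MM (8.12 to 9.43). The groups overlapped, with 5 MM lines below all DLBCL lines, and the difference of -0.48 (95% interval -0.81 to -0.15) had an adjusted p of 0.055. KIF18A, which dampens the movement of chromosomes at the spindle centre, had a median of 7.87 in DLBCL (6.69 to 8.36) and 7.28 in MM (5.34 to 7.90). Its difference was -0.66 (-1.13 to -0.19; adjusted p = 0.062), and RPMI-8226 (5.34) and NCI-H929 (6.15) were lowest.

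The remaining mitotic kinesins gave smaller or wider estimates. KIF15 differed by -0.61 (-1.07 to -0.16; adjusted p = 0.074) and its partner at the spindle poles, KIF11, by -0.50 (-0.98 to -0.02; adjusted p = 0.18). KIF23, the motor of the centralspindlin complex, had medians of 8.89 and 8.83 and a difference of -0.10 (-0.56 to 0.35). Intervals of this width leave differences of about the size of KIF2C open for KIF11 and KIF15.

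The estimates of the proliferation genes lay mostly on the same side as those of the mitotic kinesins. Of 20, 18 had an estimate below 0 and 5 were called lower (median -0.49), among them CDK1 (-0.79, adjusted p = 0.0050). Of 11 partners of mitotic kinesins, 9 had an estimate below 0 and 1, AURKB, the kinase that regulates KIF2C, was called lower (-0.85, adjusted p = 0.0046). Among all features 55.1% had an estimate below 0 and 5.4% were called lower. With the mean of the proliferation genes as a covariate, an alternative added after the data were seen, KIF2C differed by -0.52 (adjusted p = 0.034), KIF20A by -0.18 (0.49), KIF11 by 0.02 (0.97) and KIF23 by 0.36 (0.22). In RNA from a whole culture, fewer dividing cells and less RNA per dividing cell cannot be told apart.

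Among the transport kinesins, KIF1B, a kinesin-3 motor that carries mitochondria and vesicle precursors, was at 4.47 in the lowest, 6.30 in the median and 7.50 in the highest DLBCL line, and at 6.88, 7.81 and 8.99 in MM. All 12 MM lines were above the DLBCL median, 9 of them above every DLBCL line, and 12 of the 14 DLBCL lines were below every MM line. The highest DLBCL lines were HBL-1 (7.50) and RIVA (6.96). The means of 5.98 ± 0.996 (SD, n = 14) and 7.83 ± 0.61 (SD, n = 12) differed by 1.86 (SE 0.32) or 3.62-fold (95% interval 2.29 to 5.72; adjusted p = 3.4e-04, limma). Within DLBCL the low lines were SU-DHL-4 (4.47), MC-116 (4.56), FARAGE (4.82), SU-DHL-5 (5.00) and SU-DHL-8 (5.07). KIF1B has 4 probe-sets, of which 3 gave differences of 1.86, 1.86 and 1.70 and the fourth, at or below the median of all values in every line, one of 0.05.

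KIF1A, a paralogue of KIF1B best known for axonal transport, went the other way by a small amount. Its values were 6.53 to 7.04 in DLBCL (median 6.75) and 6.40 to 6.78 in MM (median 6.62), and the groups overlapped. The difference was -0.17 (SE 0.06), or 1.13-fold, with an adjusted p of 0.046, on a probe-set that spanned only 0.64 over the 26 lines. The other 2 probe-sets of KIF1A, at or below the median of all values in every line, gave 0.02 and -0.12, neither called. Of the 26 fits that leave out 1 line, the call of KIF1A was made in 8.

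KIF16B, which carries early endosomes, was named after its values were seen. It had a median of 7.26 in DLBCL (5.71 to 8.84) and 6.46 in MM (4.18 to 7.89), a difference of -1.09 (-1.84 to -0.33; adjusted p = 0.055), and its second probe-set, above the median of all values in 11 lines, gave -0.53 (adjusted p = 0.041). Its lowest lines were KMS-12-BM (4.18), AMO-1 (4.77) and KMM-1 (5.07). KIF5B, the kinesin-1 heavy chain found in most tissues, had a median of 11.33 in DLBCL (10.69 to 11.76) and 11.19 in MM (10.01 to 12.01), with a difference of -0.14 (-0.52 to 0.23). KIF3A, a kinesin-2 subunit needed for cilia, differed by -0.27 (-0.75 to 0.20), and DB had its highest value, 8.84.

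The adaptors and light chains gave no common direction. Of all features, 10.9% were called, 5.49% higher and 5.4% lower, and the few calls below are not read as a trait of these sets. Of 5 light chain and kinesin-2 adaptor genes, KIFAP3, which links KIF3A and KIF3B to cargo, was called higher in MM (1.12, adjusted p = 0.0053) and the 4 light chain genes were not called. Of 9 cargo adaptors, TRAK2 was called higher (0.87, adjusted p = 0.0037) and TRAK1 lower (-0.76, adjusted p = 0.0049), both of which are adaptors for mitochondria. Of 16 genes of cytoplasmic dynein, the motor of the opposite direction, and its regulators, DYNC1I1 was called higher (0.83, adjusted p = 0.021) and NDE1 lower (-1.52, adjusted p = 7.0e-05).

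Among the other kinesins, KIF21A was at 3.91 in the lowest, 7.36 in the median and 9.58 in the highest DLBCL line, and at 7.43, 9.30 and 10.10 in MM. The DLBCL lines were spread widely: MC-116 (3.91), OCI-Ly7 (4.08), SU-DHL-5 (4.22) and SU-DHL-4 (4.34) were low, whereas OCI-Ly3 (9.58) and U2932 (9.13) were high. Of the 14 DLBCL lines, 7 lay below every MM line and the other 7 within the MM range, which began at 7.43. All 12 MM lines were above the DLBCL median and 4 were above every DLBCL line. The difference of KIF21A was 2.17 (SE 0.59) or 4.5-fold (95% interval 1.93 to 10.5; adjusted p = 0.017), and its second probe-set, above the median of all values in 2 lines, gave 1.02 (adjusted p = 0.012). KIF21B, its paralogue, had a median of 8.06 in DLBCL (5.15 to 9.78) and 8.84 in MM (6.63 to 11.08). The difference of 1.35 (0.23 to 2.46) did not pass (adjusted p = 0.11), and HBL-1, U2932 and SU-DHL-5 were lowest with values of 5.15, 5.56 and 5.58.

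KIF26B, an atypical member whose head does not work as a motor and which was named after its values were seen, was near 5 in most lines and high in RIVA (8.01), U2932 (7.19), FARAGE (7.10), HBL-1 (6.83), DB (6.78) and OCI-Ly3 (6.51). These 6 DLBCL lines were above every MM line, of which LP-1 was highest at 5.54. The difference of -0.99 (-1.69 to -0.29) had an adjusted p of 0.061. KIF23-AS1, an antisense transcript to KIF23 that was at or below the median of all values in every line, differed by -0.26 (-0.44 to -0.08; adjusted p = 0.0502).

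**Figure D4:**
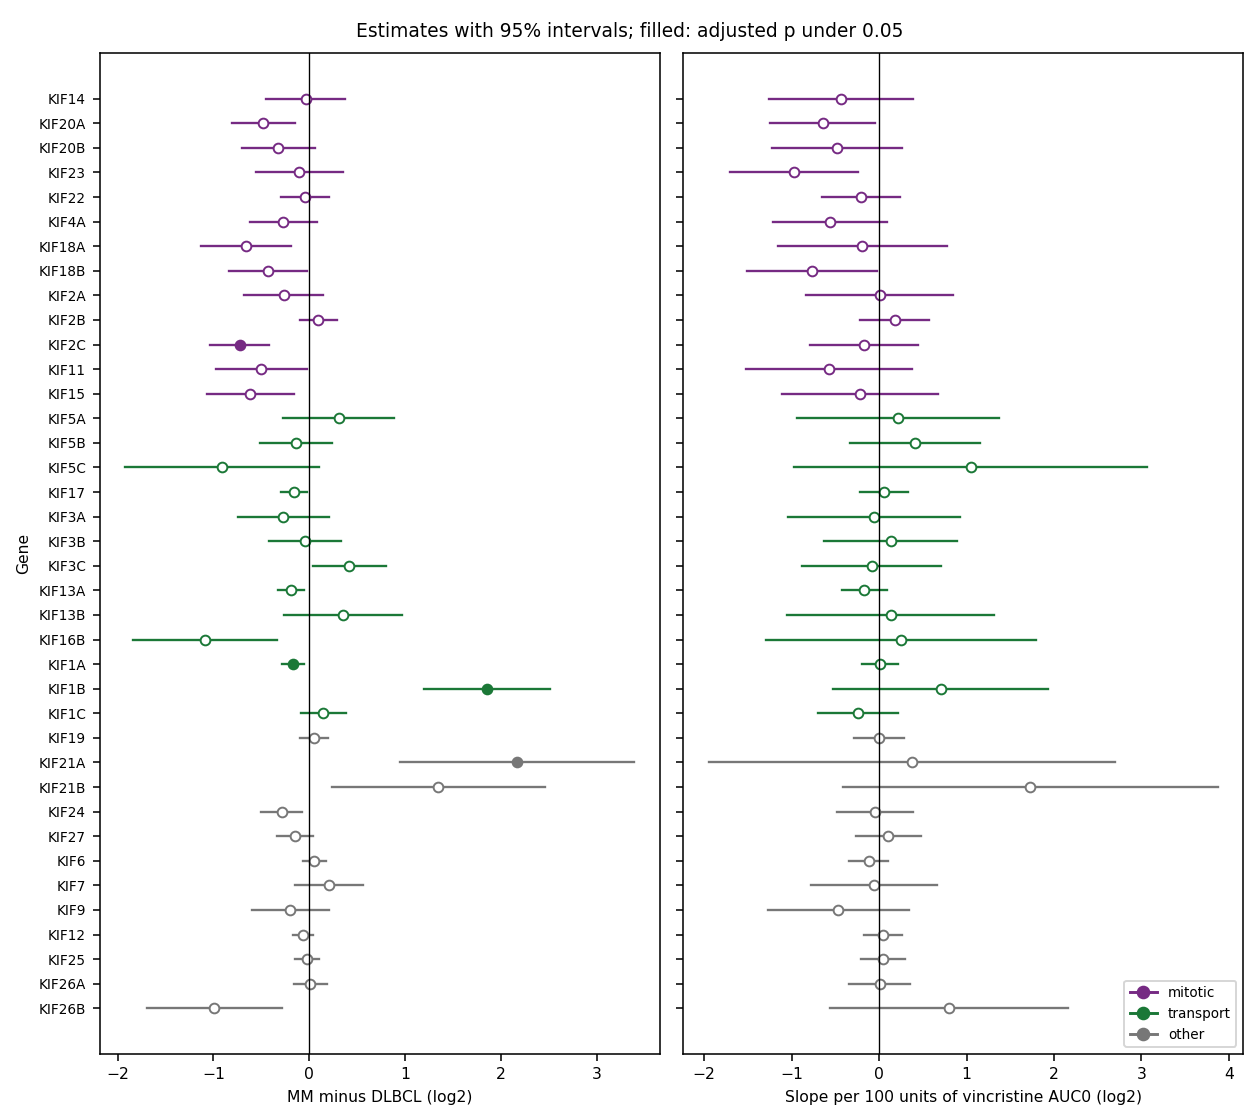
Estimates with 95% intervals for the 38 motors (rows, coloured by role): left, MM minus DLBCL in log2 (26 lines), right, the slope in log2 per 100 units of vincristine AUC0 with a disease term (24 lines). Filled points passed an adjusted p of 0.05, and these are KIF2C, KIF1A, KIF1B and KIF21A on the left and none on the right, where the mitotic estimates lie mostly below 0.

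The second comparison asked whether kinesin levels follow the response to vincristine. The AUC0 of vincristine ranged from 54 in OCI-Ly19 to 131 in DB among 12 DLBCL lines (median 85) and from 90 in MM1S and U-266 to 187 in LP-1 among 12 MM lines (median 118.5). The model therefore held a disease term. AUC0 entered as a single value per line, and the interval that the labels give for it was not used. That interval was widest for MC-116, LP-1 and SU-DHL-8. In MC-116, classed as sensitive, it reached into the AUC0 values of the resistant DLBCL lines. None of the 42 transcripts passed for the slope on AUC0, nor did any of the 33297 features (0%). At an unadjusted p of 0.05, 4 of 42 were below it (KIF23, KIF23-AS1, KIF20A and KIF18B), each with a negative slope, against 1892 features (5.68%), of which 911 (2.74%) had a negative slope.

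Most mitotic kinesins had slopes below 0, none of which passed. Of 13, 11 had a negative slope, with a median of -0.43 per 100 units of AUC0, while 52.3% of all features had a negative slope and their median was -0.01. Since the mitotic kinesins were mostly correlated over the lines, a few lines can set many of these signs together, and they are not independent counts. Of 13 transport kinesins 4 had a negative slope, with a median of 0.13. The 20 proliferation genes had 19 negative slopes and a median of -0.65, and none passed.

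KIF23 had the smallest p of the family. Its values in the 8 lines classed as sensitive to vincristine were 7.66 at the lowest, 9.06 at the median and 9.93 at the highest, and 7.82, 8.51 and 8.96 in the 8 resistant lines. The groups overlapped, since RPMI-8226, a sensitive MM line, had the lowest KIF23 of all 16 at 7.66, and U-266, also sensitive, the highest. In DLBCL the 4 sensitive lines were at 8.81 to 9.33 and the 4 resistant ones at 8.12 to 8.96. The slope of KIF23 was -0.97 (SE 0.35, 95% interval -1.70 to -0.24) per 100 units of AUC0, with an unadjusted p of 0.012 and an adjusted p of 0.87 (limma). The second probe-set of KIF23 gave -0.33 (unadjusted p = 0.42).

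KIF20A had a slope of -0.65 (-1.25 to -0.05; adjusted p = 0.88). In the DLBCL lines sensitive to vincristine it was at 9.19 to 9.94 and in the resistant ones at 8.92 to 9.41. In MM these ranges were 8.12 to 9.43 and 8.35 to 9.42, which lie over each other. KIF18B, which acts on the tips of astral microtubules, had a slope of -0.77 (-1.51 to -0.03; adjusted p = 0.88). LP-1, the line of the highest AUC0, had its lowest value, 7.44, and without LP-1 the slope was -0.38. KIF4A, which binds chromosome arms and the central spindle, had a slope of -0.56 (-1.21 to 0.09), or -0.38 without LP-1. RPMI-8226, an MM line classed as sensitive, was also low in KIF18B (7.95) and KIF4A (8.45), against the direction of these slopes.

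The motors of the spindle poles and ends showed less. The slope was -0.57 (-1.52 to 0.38) for KIF11, -0.21 (-1.11 to 0.68) for KIF15, -0.17 (-0.79 to 0.44) for KIF2C and -0.19 (-1.16 to 0.77) for KIF18A. These intervals hold slopes as steep as that of KIF23 for KIF11, KIF15 and KIF18A, and they hold 0 as well, so neither can be told from the other with these lines. With the proliferation mean as a covariate the slopes of KIF23, KIF20A and KIF18B were -0.36, -0.26 and -0.13, and that of KIF11 was 0.34 (adjusted p from 0.96 to 0.98 for these genes).

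**Figure D5:**
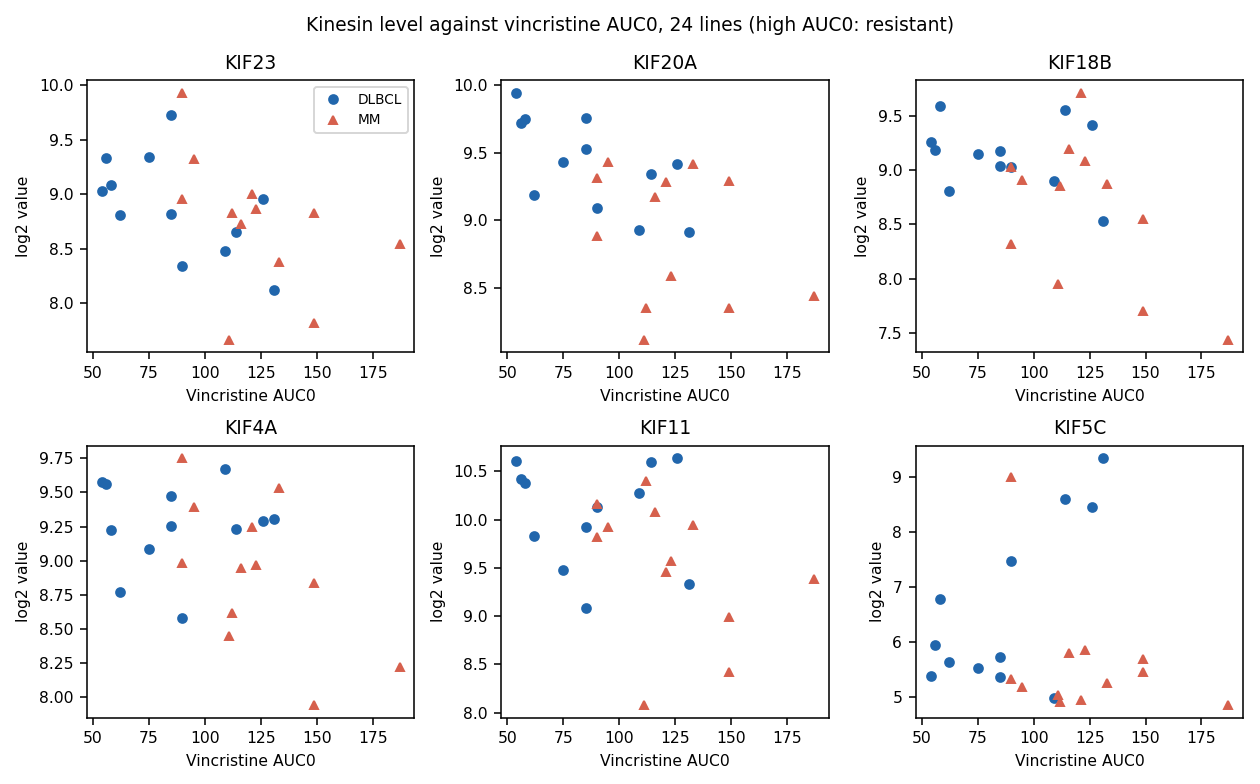
log2 value of 6 kinesins (vertical axis, a separate scale in each panel) against vincristine AUC0 (horizontal axis) in 12 DLBCL (circles) and 12 MM lines (triangles). The points of KIF23 and KIF20A lie mostly lower at a high AUC0 in DLBCL (adjusted p over both diseases 0.87 and 0.88, limma). Low points of KIF18B and KIF4A lie at LP-1 (AUC0 of 187) and NCI-H929 (149), but also at RPMI-8226 (111), a sensitive line. KIF5C is high in 3 of the 4 DLBCL lines of highest AUC0 and in U-266.

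Transport kinesins gave wide intervals. The slope was 0.41 (-0.33 to 1.16) for KIF5B (0.18 without U-266), -0.05 (-1.04 to 0.93) for KIF3A and 0.70 (-0.52 to 1.93) for KIF1B, and 1.73 (-0.41 to 3.87) for KIF21B of the other kinesins, none of which passed. KIF1B and KIF2C, which separated the diseases, thus had no slope within them that could be told from 0.

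Resistant and sensitive lines (8 and 8) also gave no calls. None of the 42 transcripts and none of all features passed (0%), and 0 of 42 were below an unadjusted p of 0.05, against 1179 features (3.54%). The smallest p values were those of KIF23 (-0.54, 95% interval -1.09 to 0.01; adjusted p = 1.0), KIF1B (0.67, -0.04 to 1.38), KIF23-AS1 (-0.18), KIF2B (0.19) and KIF26B (0.62).

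Within DLBCL none of the 42 transcripts passed for the vincristine slope, against 1 feature (0.003%), and 3 were below an unadjusted p of 0.05, against 1551 features (4.66%). KIF5C had the smallest p, with a slope of 3.73 per 100 units (1.27 to 6.18; adjusted p = 0.92). Of the 4 resistant DLBCL lines, DB, SU-DHL-8 and OCI-Ly7 were at 9.35, 8.46 and 8.60 and RIVA at 4.97, and the 4 sensitive lines were at 5.37 to 6.78. KIF1C, a kinesin-3 motor, had a slope of -0.73 (-1.33 to -0.14; adjusted p = 1.0). Within MM none passed against 11 features (0.033%), and 2 were below an unadjusted p of 0.05 against 1845 features (5.54%). These were KIF4A (-1.14, -2.0 to -0.29; adjusted p = 0.69) and KIF18B (-1.26, -2.27 to -0.25; adjusted p = 0.76), the latter at -0.63 without LP-1.

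The difference between the slopes was tested as well. None of the 42 passed and none of all features (0%), and 3 of 42 were below an unadjusted p of 0.05, against 1372 features (4.12%). These were KIF5C, KIF1C and KIF9-AS1. For KIF5C the MM slope was lower by 5.21 units than the DLBCL slope, written as -5.21 (-8.64 to -1.78; unadjusted p = 0.0047, adjusted p = 1.0). U-266, with a KIF5C of 9.01 and an AUC0 of 90, was the high MM line, and without it the difference was -3.83.

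For C and H the family gave no calls, and the mitotic kinesins had median slopes near 0 per 100 units of AUC0. The SD of AUC0 within a disease was 28 for vincristine, 45 to 60 for C and 40 to 52 for H. A unit of 100 is thus a larger step for vincristine, and the sizes of the slopes cannot be compared between the drugs. For C (24 lines) none of the 42 transcripts and no feature passed for the slope (0%), and 2 of 42 were below an unadjusted p of 0.05, against 1322 features (3.97%). Both were positive and were named after their values were seen: KIF26B (0.93 per 100 units of AUC0, 0.31 to 1.56; unadjusted p = 0.0051) and the kinesin-1 heavy chain KIF5A (0.75, 0.21 to 1.29; unadjusted p = 0.0086; 0.50 without DB), each with an adjusted p of 1.0. The slope of KIF26B was -0.06 when the MM lines were fitted alone. The 13 mitotic kinesins had a median slope of -0.03, and 8 of their slopes were negative, against 49% of those of all features.

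For H (26 lines) none of the 42 and no feature passed for the slope (0%), and 1 of 42, KIF23-AS1 (-0.19, unadjusted p = 0.048), was below an unadjusted p of 0.05, against 1655 features (4.97%). The mitotic kinesins had a median slope of -0.08, and 8 of 13 were negative, against 45.4% of all features. Between resistant and sensitive lines none passed for C or H (0% of all features in each), and 2 of 42 were below an unadjusted p of 0.05 for each drug, against 1480 features (4.44%) for C and 2045 (6.14%) for H. For H, KIF13B, a kinesin-3 motor named after its values were seen, had an estimate for the 9 resistant minus the 9 sensitive lines of -0.78 (-1.44 to -0.12; unadjusted p = 0.023, adjusted p = 0.77), and for C one of -0.64 (-1.26 to -0.03; unadjusted p = 0.042, adjusted p = 0.99).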

How the data were processed

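The authors hybridised RNA of 26 untreated lines, 1 array each, and deposited log2 values after RMA (R 3.0.1 and affy, per the labels). RMA subtracts background, makes the arrays share a distribution and merges the probes of each probe-set, which compresses low values. A total of 54675 probe-sets included 62 controls, left out here. Probe-sets with 1 symbol (41091) were reduced to that of the highest mean per gene, and the others were kept singly, which gave 33297 features. Disease, AUC0 and classes came from the labels. The label class that follows the doxorubicin AUC0 carries the cyclophosphamide tag a second time and was read, by its place, as the doxorubicin class. OCI-Ly7, resistant to doxorubicin by that label, is classed as sensitive in the study's table of lines. The label was kept, since the doxorubicin AUC0 of OCI-Ly7 (325) is above that of DB (276), a DLBCL line that both class as resistant.

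limma 3.58.1 (R 4.3.3, lmFit and eBayes) tested MM against DLBCL, slopes per 100 units of AUC0 and resistant against sensitive lines with a disease term, and slopes by disease. p values were adjusted over all features (Benjamini-Hochberg, threshold 0.05). Those given for second probe-sets came from a separate fit, adjusted over 54613 probe-sets each tested on its own. The fits were tested on simulated data. Tables were made in Python 3.11.15 (pandas 2.3.3, numpy 2.4.6, matplotlib 3.10.9).

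Members and lists were chosen with earlier results of these data known. Genes named are those called, the 5 of smallest p for vincristine and for disease, and KIF11, KIF15, KIF2C, KIF18A, KIF20A, KIF23, KIF5B, KIF3A, KIF1B and KIF21B. Of the kinesins outside these symbols (CENPE, KIFC1, KIFC2 and KIFC3) none was called between the diseases. Alternatives were other probe-set choices, filters, centring, priors and scaling, ranks of AUC0, 1 disease alone, lines left out and a proliferation covariate. No depth applies to arrays, and their number limits the precision.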

Additional observations from a re-analysis of the deposited data

Results flagged for a closer look

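For 15 kinesin transcripts named for vincristine, the 8 resistant and the 8 sensitive lines were searched for a line far from the rest (Dixon's test, 30 groups). Each group pooled lines of both diseases, and several of the genes were correlated, so the nominal rate of about 1 in 20 need not hold here. The test marked 6, a count that is not read as an excess. RPMI-8226 was low among the sensitive lines for KIF11, at 8.08 with the next line at 9.82, and for KIF18A, at 5.34 with the next at 7.09. FARAGE was high among the sensitive lines for KIF26B, at 7.10 with the next at 4.95. Among the resistant lines DB was high for KIF3A (8.84, next 7.27), KMM-1 high for KIF2B (5.04, next 4.34) and LP-1 low for KIF23-AS1 (4.33, next 4.69). KIF2B and KIF23-AS1 are below the median of all values in all lines.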

How the results depend on the processing

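KIF1B, KIF21A and KIF2C were called between the diseases in all 26 fits that leave out 1 line and in all 9 other settings, and KIF1A in 8 and 3 of them. Members not called in the report were called in some: KIF20A in 8 and 3, KIF23-AS1 in 6 and 5, KIF26B in 5 and 2, KIF16B in 4 and 3, KIF18A in 4 and 2, KIF15 in 2 and 2, and KIF13A, KIF24 and KIF17 in 4, 3 and 1 of the fits that leave out 1 line and 0 others. The count of 4 became 7 of 35 with dim probe-sets left out (KIF16B, KIF18A, KIF20A and KIF26B added, KIF1A lost; 18.2% of 19548 features called), 7 of 42 with genes of 1 symbol only (13% of 19775), 7 of 42 without MC-116 and AMO-1 (9.99% of 33297) and 7 of 42 without KMS-12-PE (10.3%), and ranged from 3 to 7 with 1 line left out (7 only without KMS-12-PE). The cause was not tested. No member was called for a drug under any alternative run. Signs turned for values that had not passed. With the proliferation covariate the disease difference was 0.017 for KIF11 and 0.36 for KIF23, and the vincristine slopes were 0.18 for KIF2C, 0.34 for KIF11, 0.31 for KIF15 and 0.57 for KIF18A. In DLBCL lines alone the vincristine slopes were 0.19 for KIF2C, 0.058 for KIF4A, 0.15 for KIF15 and 0.18 for KIF3A, and the resistant minus sensitive difference of KIF2B was -0.0033. In MM lines alone KIF26B had a C slope of -0.059 and a C class difference of -0.14. KIF5B had a vincristine slope of -0.0092 with the probe-set of largest SD, and KIF3A one of 0.0040 on ranks of AUC0. With 1 line left out the vincristine slope of KIF3A ranged from -0.63 to 0.21, and those of KIF2C, KIF15 and KIF18A came closest to 0 at -0.0019 (without LP-1), -0.011 (without OCI-Ly19) and -0.043 (without NCI-H929). Between the diseases KIF23 was at -0.0057 without RPMI-8226, KIF5B at -0.037 without U-266 and KIF3A at -0.13 without DB, and between vincristine classes KIF26B was at 0.32 without RIVA and KIF2B at 0.070 without KMM-1. No paired analysis was possible because replicate numbers only name the lines, and no number links a DLBCL line to an MM line.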
